A study of Vernicia fordii and Jatropha curcas with 4 samples.

Results

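Late embryogenesis abundant (LEA) proteins, dehydrins and the seed 1-Cys peroxiredoxin were followed in the seeds of Jatropha curcas, the physic nut, and of Vernicia fordii, the tung tree, which are both oil trees. The list held 38 Arabidopsis loci, and its members were the assembled contigs that the deposited tables match to one of these locus codes. In Jatropha 23 of 45411 contigs belonged to 19 of the 38 loci, and in Vernicia 33 of 49582 contigs also belonged to 19 loci. Contigs were present in both tables for 14 loci, in 1 table alone for another 10, and in neither for the other 14. The tables give locus codes without gene names, so each member is described by its code, and the classes above describe the list as a whole.

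The series set the lipid-producing seeds of both species side by side at an early and at a fast stage of oil accumulation. Jatropha seeds were taken 29 and 37 days after pollination and Vernicia seeds after 90 and 135 days. The labels name endosperm as the source and seeds as the tissue. Each of the 4 libraries was made from polyadenylated RNA of 3 seeds mixed in equal parts, and the trees were 3 years old, Jatropha from farmland in southern Guizhou and Vernicia from northwest Hunan, so species and growing site cannot be told apart. Value columns are numbered 7 and 8 and no label used here ties a number to a stage, so the libraries are called library 7 and library 8 and no difference is given a direction in time. There was 1 library per group and so no replicate check and no p-value.

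LEA proteins are very hydrophilic proteins, largely unfolded in water, that seeds make in quantity as they mature and dry. They are thought to protect membranes and other proteins while water is lost, and dehydrins are the LEA family marked by a repeated lysine-rich stretch. In Arabidopsis many of their genes are switched on by abscisic acid and by the regulators of seed maturation, and the 1-Cys peroxiredoxin of seeds removes peroxides in the aleurone and embryo.

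Levels are RPKM, reads scaled to the length of a contig and to the mapped reads of its library, summed over the contigs of a locus. Read totals are unknown, so counting errors could not be given. The RPKM of all contigs summed to 1104588 and 817400 in Jatropha libraries 7 and 8, and to 676071 and 751745 in Vernicia libraries 7 and 8. Differences are on the log2(RPKM + 1) scale, library 8 against library 7, which understates the change of low loci. The median locus with at least 1 RPKM in either library differed by -0.93 in Jatropha and by -0.48 in Vernicia, and differences of the members are given as deposited with these shifts beside them. Defining markers of endosperm could not be looked up without gene names, so the labelled tissue was not checked. In such bulk samples fewer cells of a type and less RNA per cell cannot be told apart.

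In both species most members stood far higher in library 8. At least 2-fold higher there were 15 of 19 members in Jatropha, against 7.15% of the 12931 loci tested, and 16 of 19 in Vernicia, against 7.7% of 12895 loci. At least 2-fold lower were 1 of 19 members in Jatropha, against 46.9% of all loci, and none of 19 in Vernicia, against 18.8%. A 4-fold excess in library 8 was reached by 13 members in each species, against 2.8% of all loci in Jatropha and 2.66% in Vernicia. The median difference of the members was 4.89 in Jatropha and 2.75 in Vernicia, which is 5.82 and 3.23 above the median of all loci. The Vernicia median was 1.71 with a pseudocount of 5 RPKM and 1.39 with each contig counted on its own. Of the 32 member contigs that reached 1 RPKM, 17 (53.1%) were at least 2-fold higher. Among all 19206 Vernicia contigs with a locus code that reached it, the share was 8.13%. The members counted as higher in Jatropha ranged from 1.01 to 7.90 and those in Vernicia from 1.27 to 10.21. The balance of all loci depended on the scaling of the libraries, and in Vernicia median-ratio scaling turned it. The log2 factors on library 8 reached 0.97 in Jatropha and 0.53 in Vernicia. Both raise library 8, so they could only move the members further up, and the members' counts under them are no check of the balance. The only factor that lowered library 8 was -0.15, for equal totals in Vernicia. There 16 of 19 members were at least 2-fold higher and 0 lower, against 6.71% and 24.7% of all loci. With median-ratio scaling 17.0% of all Jatropha loci were higher and 21.9% lower in library 8, and 12.7% and 7.97% of all Vernicia loci, while 16 and 18 members were higher and 1 and none lower.

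The members took a larger share of the RPKM in library 8 of both species. In Jatropha they summed to 6080 RPKM in library 7 and 31545 in library 8, or 0.55% and 3.86% of the library. In Vernicia they summed to 542 and 5167 RPKM, or 0.0801% and 0.687%. The median member locus had 32.0 RPKM in Jatropha library 7 and 998 in library 8, while the median over all loci was 12.3 and 5.81. In Vernicia the median member had 3.94 and 45.4 RPKM, against 12.7 and 8.99 over all loci, so the typical member lay below the typical locus in library 7 and above it in library 8. Among the 100 most abundant loci there were 1 member in Jatropha library 7 and 12 in library 8, and none and 2 in Vernicia libraries 7 and 8.

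**Figure D1:**
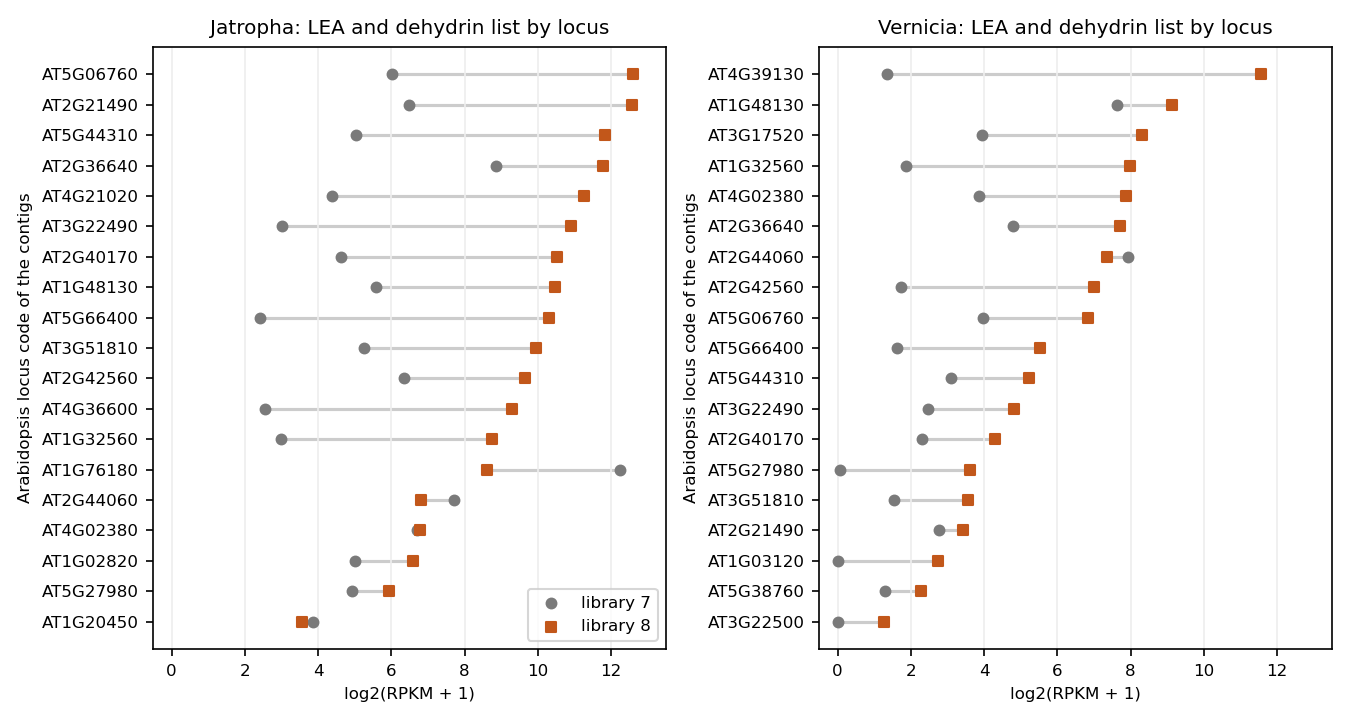
RPKM of each member locus on a log2(RPKM + 1) axis in library 7 (grey circles) and library 8 (orange squares) of Jatropha (left) and Vernicia (right), sorted by library 8. Library 8 is the higher one for 16 of 19 loci in Jatropha and 18 of 19 in Vernicia. The share of all loci higher in library 8 is not given here. The median difference of all loci is -0.93 in Jatropha and -0.48 in Vernicia. AT1G76180 in Jatropha, at 4815 and 393 RPKM, is the widest exception.

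A few loci made up most of the Jatropha signal of library 8. AT5G06760 stood at 63.3 RPKM in library 7 and at 6179 RPKM in library 8, which is a log2 difference of 6.59. AT2G21490 had 88.0 and 6075 RPKM, a difference of 6.09. They ranked 9 and 10 by abundance among all loci of library 8 and held 19.6% and 19.3% of the members' RPKM. AT5G44310 followed with 32.0 and 3628 RPKM and a difference of 6.78. For AT2G36640 the values were 463 and 3529 RPKM. It was the second most abundant member in library 7, and its difference of 2.93 was among the smaller ones.

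Another 4 Jatropha members with wide relative differences had at most 19.7 RPKM in library 7. AT3G22490, summed over 3 contigs, stood at 7.06 RPKM in library 7 and at 1926 RPKM in library 8, with a log2 difference of 7.90. AT5G66400 had 4.32 and 1259 RPKM, a difference of 7.89. These were the sixth and the seventh largest excesses in library 8 among the 12931 loci tested. AT4G21020 had 19.7 and 2446 RPKM, a difference of 6.88, and AT4G36600 had 4.87 and 629.9 RPKM, a difference of 6.75. Neither of these last loci had a contig in the Vernicia table. In all, 11 of the 19 Jatropha members were among the 100 loci with the largest excess in library 8.

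A middle group of Jatropha members had 9.86 to 62.1 times the RPKM of library 7 in library 8. AT2G40170 had 23.9 and 1465 RPKM, a log2 difference of 5.88. AT1G32560 had 6.88 and 427 RPKM, a difference of 5.76. AT1G48130, almost all of it from 1 of its 3 contigs, had 46.6 and 1406 RPKM, a difference of 4.89. These loci had at most 46.6 RPKM in library 7 and at least 427 RPKM in library 8. AT3G51810 had 37.4 and 998 RPKM, a difference of 4.70. AT2G42560 had 80.8 and 797 RPKM, a difference of 3.29.

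The remaining 6 Jatropha members did not share this pattern or showed it weakly. AT1G76180 went the other way, at 4815 RPKM in library 7 and 393 RPKM in library 8, with a log2 difference of -3.61. It was the sixth most abundant of all loci in Jatropha library 7 and alone held 79.2% of the members' RPKM there, against 1.25% in library 8. Without it the members summed to 1265 RPKM in library 7 and 31152 in library 8, a ratio of 24.6, against 5.19 with it. As AT1G76180 was picked for going the other way, the larger ratio follows from that choice and is a description. AT1G02820 had 30.9 and 95.5 RPKM, a difference of 1.59. AT5G27980 lay just past the 2-fold limit, with 29.55 and 60.5 RPKM and a difference of 1.01. The other 3 were within 2-fold. AT4G02380 had 103 and 109 RPKM, a difference of 0.08, and AT2G44060 had 209.8 and 111 RPKM, a difference of -0.91, close to the median shift of all loci. AT1G20450 had 13.4 and 10.9 RPKM, a difference of -0.28. With median-ratio or trimmed mean scaling the differences of AT1G20450 and AT2G44060 turned positive, and with equal totals that of AT1G20450 did.

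**Figure D2:**
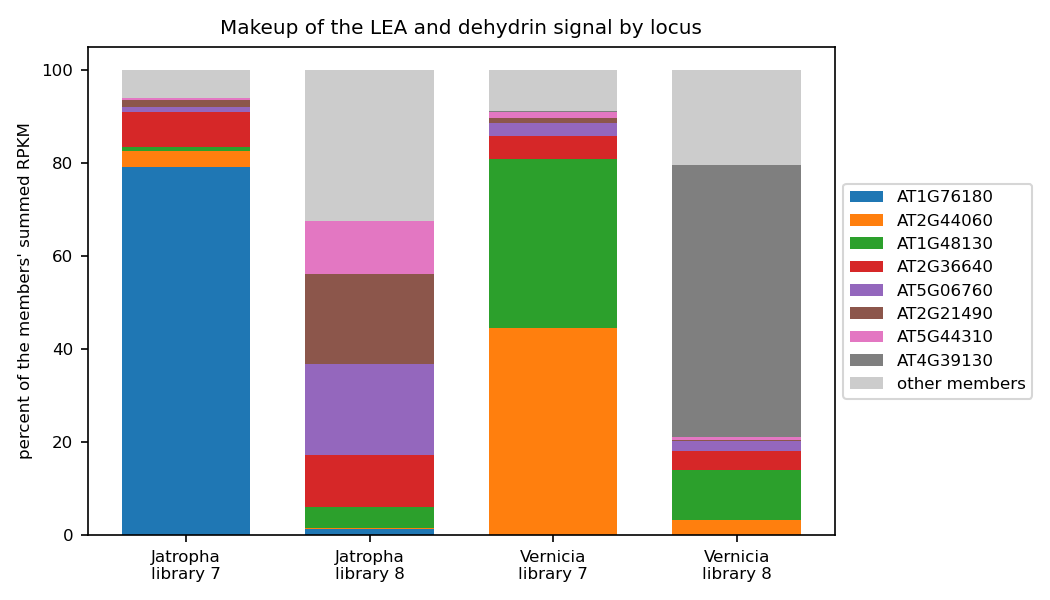
Percent of the members' summed RPKM held by 8 abundant loci and by all other members, in each library (1 bar per library, each adding to 100%). AT1G76180 holds 79.2% in Jatropha library 7 and AT4G39130 holds 58.6% in Vernicia library 8, while no locus holds over 19.6% in Jatropha library 8.

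The Vernicia signal of library 8 was carried mainly by 1 locus. AT4G39130 stood at 1.56 RPKM in library 7 and at 3027 RPKM in library 8, with a log2 difference of 10.21. This was the second largest excess among the 12895 loci tested, and the locus was the fourteenth most abundant of library 8. It held 58.6% of the members' RPKM there. Without it the members made up 0.285% of library 8. In library 7 it held 0.288% of the members' RPKM, so leaving it out there would barely lower their 0.0801% share. Without AT2G44060, the highest member of library 7, the members made up 0.0445% of that library. That value leaves out another locus than the 0.285%, so these shares are not of like sets. No Jatropha contig was matched to AT4G39130.

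Next in Vernicia library 8 came 8 loci of at least 100 RPKM. AT1G48130 stood at 198 RPKM in library 7 and at 558 RPKM in library 8, with a log2 difference of 1.49. AT3G17520, which had no contig in the Jatropha table, had 14.5 and 314 RPKM, a difference of 4.34. AT1G32560 had 2.65 and 252 RPKM, a difference of 6.11, the second largest among the members of this species. Differences of these abundant loci thus spanned a wide range. AT4G02380 had 13.6 and 233 RPKM, a difference of 4.0. AT2G36640 had 26.6 and 208 RPKM, a difference of 2.92. AT2G42560 had 2.31 and 128 RPKM, a difference of 5.29, and AT5G06760 had 14.55 and 114 RPKM, a difference of 2.89. AT2G44060 was the only member of the Vernicia table below its library 7 value, at 241 RPKM in library 7 and 164 RPKM in library 8, with a difference of -0.55, again close to the median shift of all loci.

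The less abundant Vernicia members also had their higher value in library 8, by amounts that overlapped those of the abundant ones. AT5G66400 had 2.06 and 45.4 RPKM, a log2 difference of 3.92. AT5G44310 had 7.56 and 36.2 RPKM, a difference of 2.12, and AT3G22490, over 5 contigs, had 4.49 and 27.1 RPKM, a difference of 2.36. AT2G40170 had 3.94 and 18.6 RPKM, a difference of 1.99. These 4 loci thus reached at most 45.4 RPKM in Vernicia, whereas each exceeded 1000 RPKM in Jatropha library 8. AT5G27980 had 0.05 and 11.3 RPKM in Vernicia, a difference of 3.55. AT3G51810 had 1.89 and 10.8 RPKM, a difference of 2.03, and AT2G21490 had 5.80 and 9.65 RPKM, a difference of 0.65. In Jatropha library 8 these last loci had 60.5, 998 and 6075 RPKM, so not every less abundant member exceeded 1000 RPKM there. Each species was normalised separately, so these levels are no measure of a species difference. The 3 members below 10 RPKM in every library that listed them were AT1G03120 at 5.73 RPKM and AT3G22500 at 1.42 RPKM in library 8, both listed at 0 in library 7, and AT5G38760 at 1.45 and 3.84 RPKM. No fold is given for the loci listed at 0. They count among the 16 higher members on the log2(RPKM + 1) scale, and without them 14 of 17 members were higher.

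**Figure D3:**
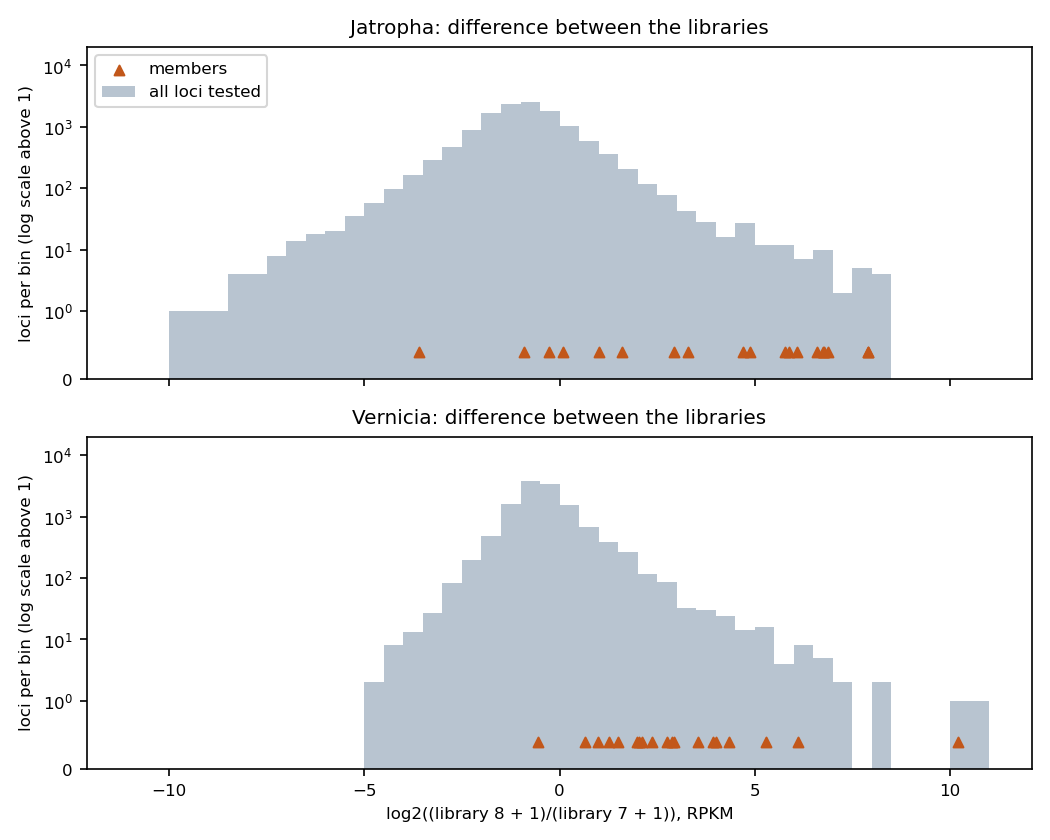
Number of loci by log2 difference between library 8 and library 7 (0.5-wide bins, log-scaled count axis) in Jatropha (top) and Vernicia (bottom), with each member as an orange triangle at an arbitrary height. The bulk of loci lies below 0, around medians of -0.93 and -0.48, while the members' medians are 4.89 and 2.75.

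The order of abundance among members was not kept between the Jatropha libraries. Across the 19 Jatropha loci, Spearman's rho between the levels of libraries 7 and 8 was 0.09, and across the 19 Vernicia loci it was 0.60. These loci share a library and its scaling, and the coefficients are descriptions. In rank among all loci, 17 of 19 members stood higher in library 8 in Jatropha and 18 of 19 in Vernicia. The share of all loci that did so was not counted, so these counts have no background beside them.

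Several contigs shared a locus code in 2 of the 19 Jatropha loci and in 9 of the 19 Vernicia loci. Contigs of 1 locus differed in how far apart the libraries were. The Vernicia contigs that were highest in library 8 at these 9 loci had log2 differences of 1.5 to 6.73. As they were picked by their library 8 value, this is a description, and of the contigs highest in library 7 at the same loci 5 of 9 were at least 2-fold higher in library 8. Of the 14 contigs that were not highest in library 8, 13 were within 2-fold and 1 was at least 2-fold higher there. Their log2 differences were -0.08 to 1.92. In library 8, 12 of these 14 were below 10 RPKM, where adding 1 RPKM compresses differences. AT5G06760 is an example with both contigs above 10 RPKM in library 8. Its contig comp15165_c0 had 13.6 and 20.7 RPKM, whereas comp10443_c0 had 0.92 and 93.3. For AT2G40170 the values were 3.73 and 5.24 RPKM for comp100448_c0 and 0.21 and 13.35 for comp84710_c0. Summed over contigs, such loci thus differed less than their contig highest in library 8. With only the highest contig of each locus, by RPKM summed over both libraries, the Vernicia median was 3.55. That pick favours contigs high in library 8, so this median is a description. With each contig counted on its own the Vernicia median was 1.39. In Jatropha all 3 contigs of AT3G22490 were far higher in library 8. They had 1.14 and 145 RPKM, 2.08 and 728 RPKM, and 3.84 and 1053 RPKM. Contigs of 1 locus may be separate genes, alleles or pieces of 1 transcript, and reads of near-identical copies may have been divided among them.

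**Figure D4:**
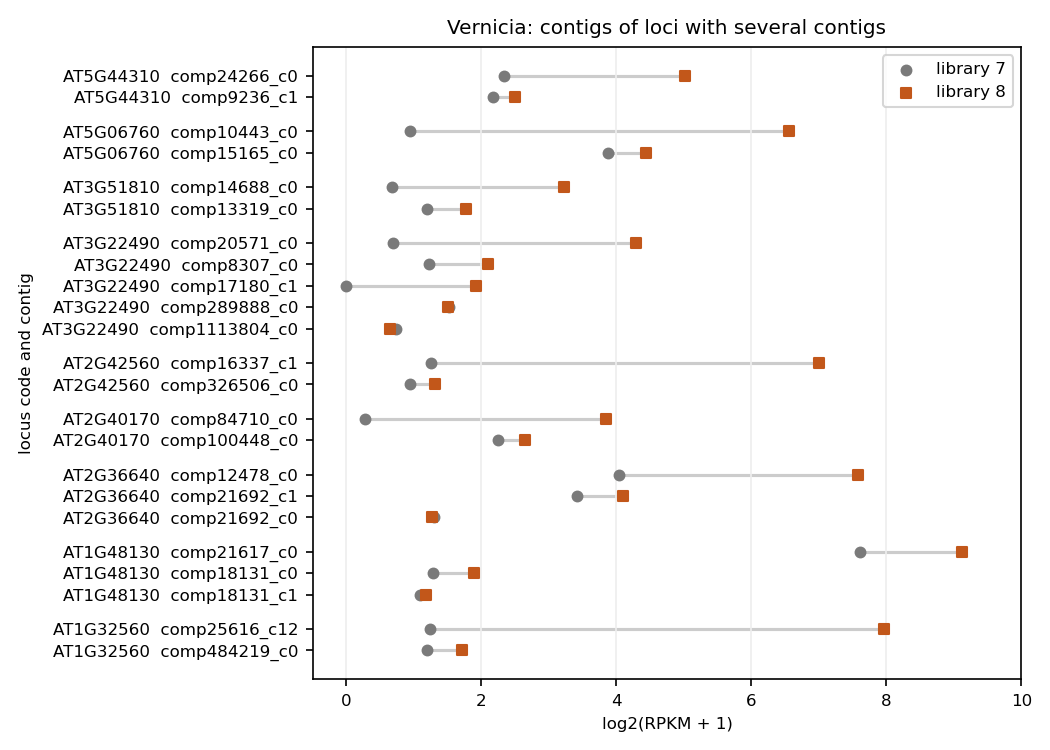
RPKM of the 23 contigs of the 9 Vernicia loci with several contigs, on a log2(RPKM + 1) axis in library 7 (grey circles) and library 8 (orange squares). Contigs of 1 locus differ in the distance between the libraries, and 12 of the 14 contigs that are not highest in library 8 lie below 10 RPKM there.

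For the 14 loci with contigs in both tables, the direction as deposited was the same in both species. At 13 loci both species had the higher value in library 8, and AT2G44060 was lower in library 8 of both. The share of all loci alike in direction was not counted. The median of all loci was itself below 0 in both species, so the direction of AT2G44060 was that of the typical locus. With median-ratio scaling AT2G44060 differed by 0.049 in Jatropha and by -0.024 in Vernicia. At least 2-fold higher in both were 11 of the 14, against 1.85% of the 11054 loci tested in both tables. The labels do not say if equal library numbers stand for equal stages in the 2 species. The sizes were unlike. AT2G21490 differed by 6.09 in Jatropha and 0.65 in Vernicia, and AT4G02380 by 0.08 and 4.0. AT2G36640 differed by 2.93 and 2.92, and AT1G32560 by 5.76 and 6.11. Spearman's rho between the log2 differences of the species was -0.05 over the 14 loci, as a description without a test. The difference between species was not tested at any locus.

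**Figure D5:**
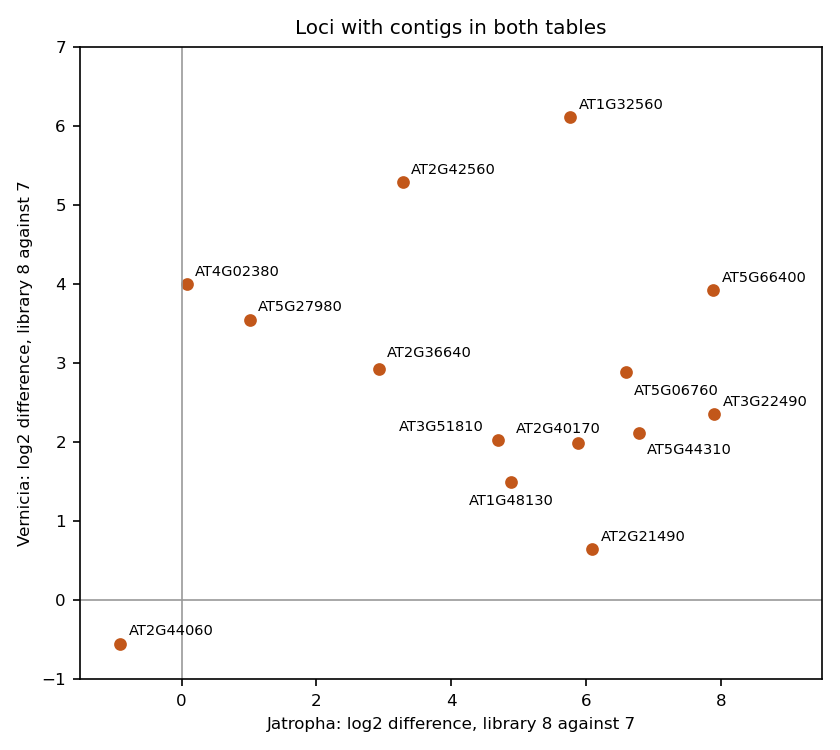
Log2 difference between library 8 and library 7 of the 14 loci with contigs in both tables, Jatropha on the horizontal and Vernicia on the vertical axis. All points but AT2G44060 lie above 0 on both axes, and the sizes show no common order (Spearman's rho -0.05). The share of all loci above 0 in both species is not given here.

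No contig of either table carried the codes AT1G01470, AT3G15670, AT1G52690, AT2G41260, AT2G41280, AT2G35300, AT3G50980, AT3G50970, AT1G20440, AT2G18340, AT3G53040, AT5G53270, AT3G02480 and AT1G54410. A locus code is the table's match for a contig, so a related gene of these trees may stand under another code or under none.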

How the data were processed

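For each species the authors deposited a table of RPKM values per assembled contig in 2 libraries, and a TAIR10 locus code where one was matched. The unit is taken from the names of the deposited tables. Bowtie and edgeR appear in the submitters' processing notes, without version or role. Assembler, counting, filters and the search behind the codes: not given in the sources used here. RPKM depends on the total of a library, so very abundant contigs lower all others, and codes bring in the limits of matching across species.

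RPKM was summed per locus. Differences were log2((library 8 + 1)/(library 7 + 1)) for loci that reached 1 RPKM in a library of the species. Loci at least 2-fold or 4-fold apart were counted for the members and for all loci. No test was run, since a group is 1 library. Members reaching 10 RPKM in any library were named with all values; the 3 others were added for completeness. The members and lists were chosen with earlier results of these data known. No table of gene names was given, so no list of other LEA genes was used, and no sequence is printed. The calculation was tested on simulated data. Alternatives were pseudocounts of 0.1 and 5 RPKM, a filter of 10 RPKM or none, and a 4-fold limit. Another was the highest contig of each locus, by its RPKM summed over both libraries. Scaling was by median ratio, trimmed mean (30% of ratios and 5% of levels trimmed at each end) or equal totals. Python 3.11.15, pandas 2.3.3, NumPy 2.4.6, SciPy 1.17.1 and matplotlib 3.10.9 were used.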

Additional observations from a re-analysis of the deposited data

How the results depend on the processing

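Counted by locus, 14 to 16 of 19 Jatropha members were at least 2-fold higher under the alternatives, and in Vernicia 15 to 18 of 19. The upper ends came from median-ratio and trimmed mean scaling, which raise library 8 and so can only add higher members. The Vernicia count was 14 of 15 at 10 RPKM or more in either library, against 8.35% of all loci. Without loci listed at 0 it was 14 of 17, against 7.37%. In Vernicia 15 members reached 10 RPKM in library 8 and 6 in library 7. That filter thus favours members high in library 8, and its count and median are descriptions. At a 4-fold limit 13 of 19 were higher in each species. Counted by contig, 17 of 22 members (77.3%) were higher in Jatropha, against 8.38% of all contigs with a locus code. In Vernicia they were 17 of 32 (53.1%), against 8.13%. By locus the members' shares were 78.9% and 84.2%. The counts lower in library 8 were 1 in Jatropha and 0 in Vernicia in all of these. The median difference of the members, 4.89 in Jatropha and 2.75 in Vernicia, became 4.91 and 2.96 at a 0.1 RPKM pseudocount, 4.77 and 1.71 at one of 5 RPKM, 5.85 and 3.21 with median-ratio scaling, 5.84 and 3.21 with trimmed mean scaling, 5.32 and 2.62 with equal totals, and 4.94 and 3.55 with the highest contig of each locus. In Vernicia it was 2.92 at 10 RPKM or more and 2.89 without loci listed at 0. With each contig counted on its own it was 5.35 and 1.39; this and leaving out loci at 0 were chosen after seeing the data. Scaling moved the median of all loci to -0.09 in Jatropha and -0.01 in Vernicia (median-ratio), and the shares of all loci 2-fold higher to 17.0% and 12.7%. AT1G20450 in Jatropha turned to 0.63, 0.62 and 0.12 with median-ratio, trimmed mean and equal-total scaling, and AT2G44060 to 0.049 and 0.038 with the first pair; these turns follow from the shift of the scaling. As a share of contigs with a locus code, the members' part of Jatropha library 7 was 0.948% and of library 8 was 4.78%, and in Vernicia these were 0.101% and 0.895%. Without the highest member of each library, a different locus in each, the shares of the total were 0.115%, 3.1%, 0.0445% and 0.285%. No paired analysis was possible because there is a single library of each kind and nothing was tested. Depth is unknown, so low values carry a counting error that could not be stated.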

Other observations

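The names of contigs group them into assembly components, and 11 components with a member held other contigs too. Contigs without a locus code moved like the member beside them in some. In Jatropha comp13041_c0 had 41.7 and 3018 RPKM in libraries 7 and 8, beside 32.0 and 3628 RPKM for comp13041_c1 (AT5G44310). In Vernicia comp16337_c0 had 0.85 and 88.1 RPKM, beside 1.39 and 127 RPKM for comp16337_c1 (AT2G42560). In other components the contigs differed. The Vernicia contig of AT4G39130, comp26834_c0, had 1.56 and 3027 RPKM, while comp26834_c1, matched to AT1G01490, had 1404 and 805 RPKM. Of the 15 contigs of comp25616 in Vernicia, comp25616_c12 (AT1G32560) had 1.36 and 249 RPKM, while the other 14 differed by log2 values between -0.93 and 0.37. Component comp17180 joined 2 members, with AT1G03120 at 5.73 RPKM and a contig of AT3G22490 at 2.77 RPKM in Vernicia library 8, both listed at 0 in library 7.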
